A study of Mus musculus with 6 samples.

Results

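The 3 TET enzymes, the base excision enzyme Tdg and the methyl-CpG binding domain genes Mbd1 to Mbd4 were followed in mouse retinae that lacked Rb1 and p107, with and without the chromatin remodeller Hells. The members were the rows of the count table named Tet1, Tet2, Tet3, Tdg, Mbd1, Mbd2, Mbd3 and Mbd4, which were 8 of its 24062 rows. Of the 8 members, 7 passed the filter on low counts and Tdg did not, and 16904 genes were tested in all. The RNA-seq libraries came from whole retinae of mice (C57BL/6 in the labels, C57BL/6N in the study's methods) at postnatal day 21, 3 from Chx10-Cre Rb1/p107/Hells triple knockout mice (Rb lox/lox, p107-/-, Hells lox/lox, here TKO) and 3 from Chx10-Cre Rb1/p107 double knockout mice (Rb lox/lox, p107-/-, here DKO). Both groups therefore carried the Cre transgene and the loss of Rb1 and p107, and they differed in Hells. No retinae with intact Rb1 and p107 were compared here. Chx10-Cre acts in retinal progenitors in a mosaic way, so a retina also holds cells in which the floxed alleles were not recombined, while p107 was absent from every cell.

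Cytosine methylation at CpG sites is copied after replication by DNMT1 with its guide UHRF1, and HELLS, with its partner CDCA7, opens nucleosomal DNA to that machinery. TET enzymes oxidize methylcytosine to hydroxymethylcytosine and on to formylcytosine and carboxylcytosine, and TDG cuts out these last forms so that base excision repair can restore plain cytosine. MBD proteins act at the other end, as readers that bring repressor complexes to methylated DNA. In neurons, hydroxymethylcytosine builds up as the cells mature, and TET3 is a prominent TET enzyme there.

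Each library held between 10343907 and 14203098 counts, and the spread between replicates was larger than counting noise alone gives. Hells stood at 70.9 ± 11.5 TMM-normalized counts in TKO and 532 ± 142 in DKO (mean ± SD of 3 retinae), which is -2.91 on the log2 scale with an adjusted p of 0.00359 in edgeR's quasi-likelihood test. TMM-normalized counts are counts divided by the library's TMM-scaled size relative to the mean size. Rb1, floxed in both groups, stood at 748 ± 66.0 and 591 ± 23.5 (adjusted p = 0.0388 in edgeR, a call kept only without TKO replicate 3 among the 6 fits that left out 1 retina), and Rbl1, which encodes p107, at 20.3 ± 7.02 and 18.6 ± 4.87. Rod markers were present in every library, from 9680 to 57034 CPM (counts-per-million, TMM-scaled) summed over 10 genes.

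Of the 7 members tested, only Tet3 reached an adjusted p of at most 0.05 in edgeR, as did 16.6% of all genes. The annotated Tet3 gene spans chr6:83362373-83459084 on the minus strand (GRCm38) and has 5 transcripts. The 250 bases before a RefSeq start inside that span (chr6:83441679-83441928, minus strand, GRCm38.p6) are shown because Tet3 carried the 1 call among the members. Other starts of the gene were not examined. The bases read 5′ to 3′, with every CpG in capitals.
Tet3: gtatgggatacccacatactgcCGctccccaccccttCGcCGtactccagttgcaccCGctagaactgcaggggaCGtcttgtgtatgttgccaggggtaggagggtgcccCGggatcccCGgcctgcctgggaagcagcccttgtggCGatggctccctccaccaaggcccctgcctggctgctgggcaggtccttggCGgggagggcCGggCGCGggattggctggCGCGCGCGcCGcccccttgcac
The stretch held 17 CpG sites at a GC content of 69.6%. Of the 32851 windows of this kind in the RefSeq table, 23.5% held at least as many, and the median was 6.

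Raw Tet3 counts were 2639, 2436 and 1724 in the TKO retinae and 1660, 1531 and 1938 in the DKO retinae. After normalization they were 3026, 2564 and 2116 in TKO and 1562, 1340 and 1673 in DKO. Every TKO retina was above every DKO retina on the normalized scale, whereas the raw counts overlapped. The means were 2569 ± 455 and 1525 ± 170, a 1.68-fold higher level in TKO (log2 fold change 0.75, SE 0.140, 95% interval 0.43 to 1.07, adjusted p = 0.0122 in edgeR). The call was lost without TKO replicate 2 (adjusted p = 0.0527 in edgeR), without DKO replicate 1 (0.0511) and without DKO replicate 2 (0.0569), at log2 fold changes of 0.75, 0.77 and 0.67.

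**Figure D1:**
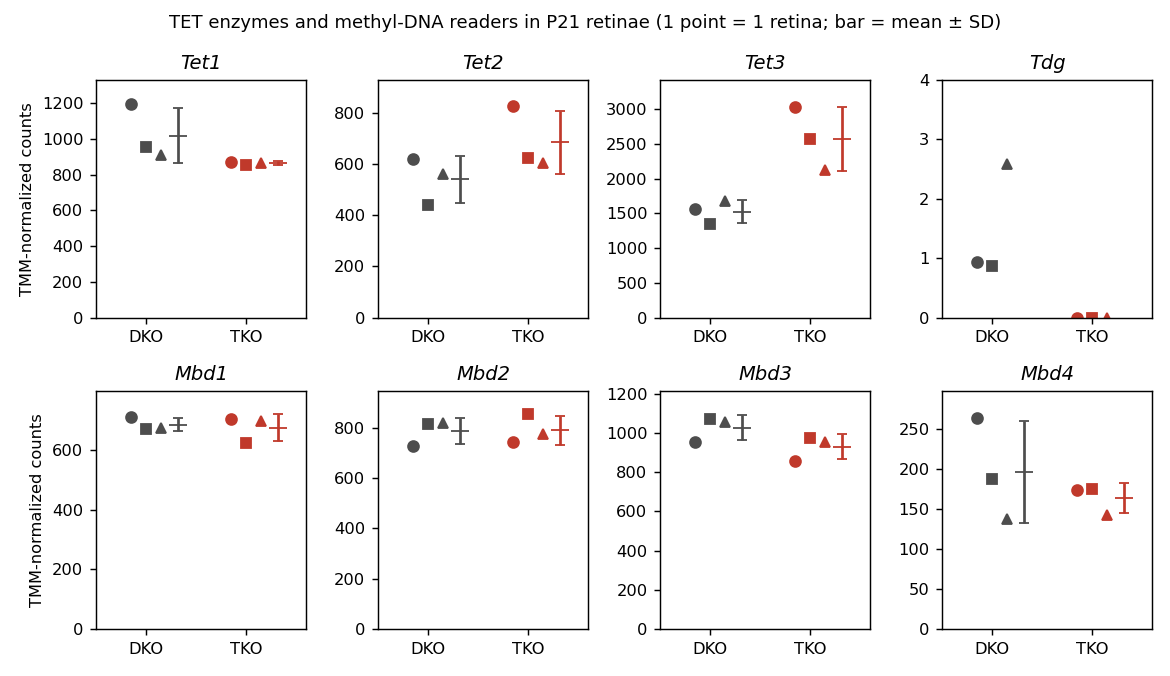
TMM-normalized counts of each member (y axis, from 0, a scale of its own per panel) in the 3 TKO and 3 DKO retinae, with points for retinae and mean and SD beside them (points alone for Tdg). Tet3 was between 2116 and 3026 in TKO and between 1340 and 1673 in DKO, while Mbd1 and Mbd2 overlapped.

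Among the 7 members tested, Tet3 was the only one with an adjusted p of at most 0.05 in edgeR, and it was higher. Across the 16904 genes tested, 16.6% reached that threshold, 7.35% higher and 9.20% lower in TKO. No member was called lower, by DESeq2 or at an unadjusted p under 0.05 in edgeR either (0 of 7). With the study's further requirements, a log2 change of 1 or more in size and a mean of 10 or more normalized counts, 0 of 7 members passed in edgeR and 0 in DESeq2, against 6.35% of all genes in edgeR. The normalized counts of the genotypes did not overlap for 2 of the 7 members, Tet3 and Tet1, against 38.6% of all genes. The median log2 fold change of the 7 members was -0.02 and that of all genes -0.011.

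Tet3 and the rod markers ranked the libraries alike, a match picked out after the orders were seen. How many other genes share that order was not counted. The summed level of the 10 rod markers was 57034, 48828 and 28239 CPM in the TKO retinae and 9957, 9680 and 18375 in the DKO retinae, and Tet3 put the 6 libraries in the same order. All 10 rod markers were called higher in TKO, with a median log2 fold change of 1.74, against 0.75 for Tet3. Without DKO replicate 2, DKO replicate 1 or TKO replicate 2, the rod markers called were 4, 5 and 6. The part of rod content in the Tet3 difference was not tested. In whole retinae, fewer cells of a type and less RNA per cell cannot be told apart.

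Another transcript is annotated on the strand opposite Tet3. B230319C09Rik shares no exon base with it, and it is outside the rule for named genes. Its counts were 21, 25 and 9 in TKO and 4, 7 and 13 in DKO, and it was not called (log2 fold change 1.52, SE 0.503, adjusted p = 0.0736 in edgeR).

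Tet1 has the DNA-binding CXXC domain that Tet2 lacks, and is best known from stem cells and progenitors. It lies on chromosome 10 (chr10:62804570-62908996, minus strand, GRCm38). Its counts were 762, 810 and 706 in TKO and 1269, 1092 and 1053 in DKO, or 874, 853 and 866 against 1194, 956 and 909 after normalization. The TKO retinae lay close together and below all DKO retinae, of which DKO replicate 1 was the highest. The log2 fold change was -0.24 (SE 0.109, 95% interval -0.49 to 0.01) and did not pass the test (adjusted p = 0.167 in edgeR). With counts scaled by library totals alone, which moves the median of all genes to -0.17, it passed (log2 fold change -0.40, adjusted p = 0.0476 in edgeR). Without DKO replicate 1 its log2 fold change was -0.11 (adjusted p = 0.419 in edgeR).

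Dividing cell markers moved with the genotypes beside Tet1. Their summed level was 55.7, 92.0 and 189 CPM in TKO and 982, 731 and 462 in DKO, and all 10 were called lower in TKO (median log2 fold change -2.65). Without TKO replicate 2 this count was 6, and without DKO replicate 1 or 2 it was 7. The 3 DKO retinae kept the same order for Tet1 and for these markers, while the TKO retinae did not. Tet1 spanned 853 to 874 normalized counts over TKO retinae in which the dividing cell markers spanned 55.7 to 189. The part of dividing cells in the Tet1 values was not tested.

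**Figure D2:**
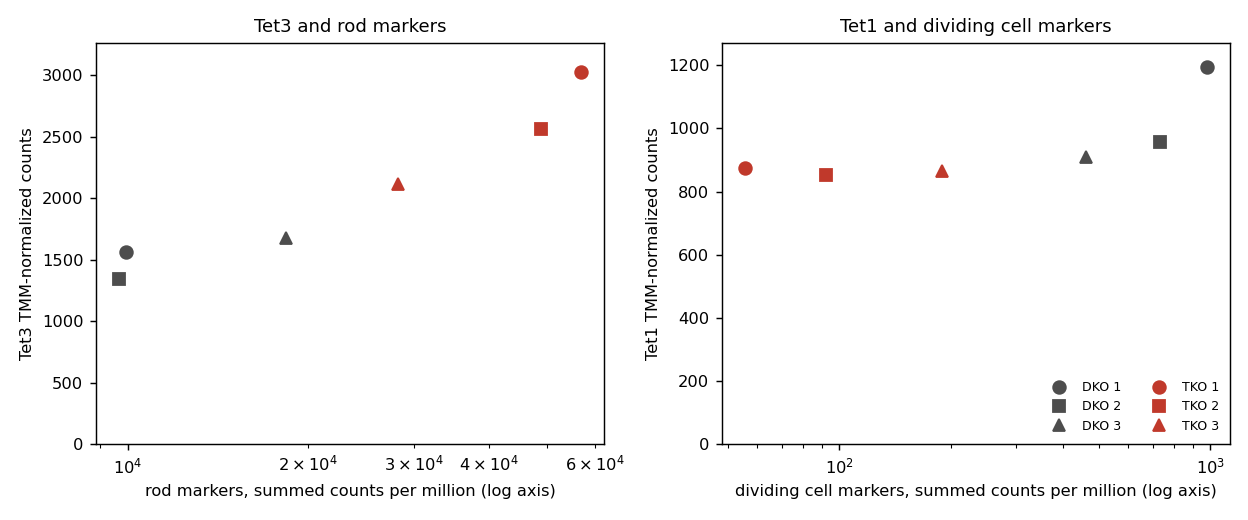
Left, Tet3 TMM-normalized counts (y axis, from 0) against the summed level of 10 rod markers (CPM, x axis, log scale). Right, Tet1 against 10 dividing cell markers, with 1 point per retina. Tet3 and the rod markers share 1 order over the 6 libraries, with DKO replicate 3 at 18375 nearest to TKO replicate 3 at 28239.

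Tet2, the TET enzyme often mutated in blood cancers (chr3:133463679-133545139, minus strand, GRCm38), had 826, 623 and 605 normalized counts in TKO and 620, 439 and 561 in DKO. TKO replicate 1 stood highest and the groups overlapped at the margin between 605 and 620. Its log2 fold change was 0.34 (SE 0.161, 95% interval -0.03 to 0.71, adjusted p = 0.177 in edgeR), an interval that reaches into that of Tet3. It was 0.19 without TKO replicate 1 and 0.21 without DKO replicate 2.

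The makeup of the TET reads was read from counts per kilobase of union exon. Tet3 made up 63.2%, 62.5% and 58.0% of the length-scaled TET counts in TKO and 45.1%, 47.7% and 52.1% in DKO. Tet1 made up 19.7%, 22.5% and 25.6% in TKO and 37.2%, 36.8% and 30.6% in DKO. Neither gene's shares overlapped between the genotypes, with differences of 12.9 and -12.3 percentage points. Tet2 held 16.2 ± 1.04% in TKO and 16.8 ± 1.18% in DKO. The two-sided exact permutation test gave p = 0.100 for Tet3 and for Tet1 (adjusted 0.233 over the 7 shares computed) and 0.50 for Tet2, where 0.1 is the smallest p that 3 retinae against 3 allow. The share of one TET gene falls when another's rises, so these 3 differences are not independent.

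**Figure D3:**
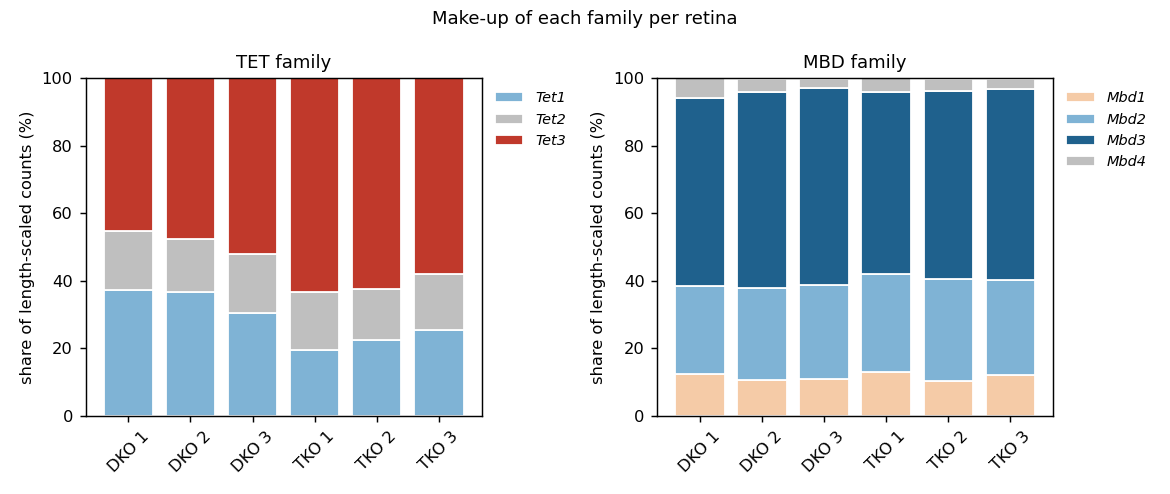
Share of length-scaled counts (percent, y axis) held by each TET gene and each MBD gene within its family, for the 3 TKO and 3 DKO retinae. Tet3 held 58.0% to 63.2% in TKO and 45.1% to 52.1% in DKO, and Tet1 held 19.7% to 25.6% in TKO and 30.6% to 37.2% in DKO.

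The ratio of Tet3 to Tet1 per length was 3.21, 2.78 and 2.26 in TKO and 1.21, 1.30 and 1.70 in DKO. The summed TET level was 19.8 ± 2.71 on the scale of CPM, divided by kilobases of exon, in TKO and 15.0 ± 1.57 in DKO, a ratio of 1.32. Both are descriptions chosen after the single genes were seen and carry no test. Tet3 alone went from 7.22 ± 0.803 to 12.2 ± 2.16 on that scale.

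Tdg, the glycosylase that removes oxidized methylcytosine (chr10:82629828-82650799, plus strand, GRCm38), was close to absent from the table. Its counts were 0, 0 and 0 in TKO and 1, 1 and 3 in DKO, which is at or under the 3 counts that a library at 0 allows, so that no fold is given. Its row is an uncertain measure of the gene. Of the 100-base stretches of its longest transcript, 38.1% also occur in transcripts of 4 other annotated genes, among them the pseudogenes Tdg-ps and Gm9855. Over all transcripts of Tdg the share was 22.6%, and the remaining stretches occur in no other annotated gene. Gm9855 was listed at 0 in every library, and 6.83% of the exon bases of Tdg overlap Glt8d2 on the opposite strand. Whether reads of Tdg were dropped or assigned elsewhere was not tested.

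Mbd1 and Mbd2 stood at like levels in both genotypes. Mbd1, whose product can bind CpG sites through both an MBD and CXXC domains, had 703, 622 and 698 normalized counts in TKO and 709, 669 and 675 in DKO. Mbd2, the methyl-CpG binding subunit of one form of the NuRD deacetylase complex, had 742, 853 and 774 in TKO and 727, 816 and 818 in DKO. The groups overlapped for both genes. Their log2 fold changes were -0.021 (SE 0.0837, 95% interval -0.21 to 0.17) and 0.0049 (SE 0.0893, 95% interval -0.20 to 0.21), with adjusted p of 0.883 and 0.975 in edgeR. A change of the size of Tet3's lay outside both intervals.

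Mbd3 takes the place of Mbd2 in the other form of NuRD and in mammals has little preference for methylated DNA. At chr10:80392539-80399550 (minus strand, GRCm38), it had 857, 978 and 956 normalized counts in TKO and 954, 1072 and 1059 in DKO, with overlap, and a log2 fold change of -0.14 (SE 0.0866, 95% interval -0.34 to 0.05, adjusted p = 0.277 in edgeR). The length-scaled ratio of Mbd3 to Mbd2 was 1.87, 1.86 and 2.00 in TKO and 2.12, 2.12 and 2.10 in DKO. The ratio did not overlap between genotypes, a description chosen after its values were seen.

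Mbd4 joins a methyl-CpG binding domain to a glycosylase that removes thymine from mismatches left by deaminated methylcytosine. It lies at chr6:115840697-115853371 (minus strand, GRCm38). Its normalized counts were 174, 175 and 142 in TKO and 264, 188 and 137 in DKO. DKO replicate 1 was the highest and DKO replicate 3 the lowest of all 6, so that the DKO retinae enclosed the TKO retinae. The log2 fold change was -0.26 with the widest interval among the 7 members tested (SE 0.233, 95% interval -0.80 to 0.27, adjusted p = 0.473 in edgeR), and it was 0.010 without DKO replicate 1. Of its exon bases, 5.00% overlap Gm44206 on the opposite strand.

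**Figure D4:**
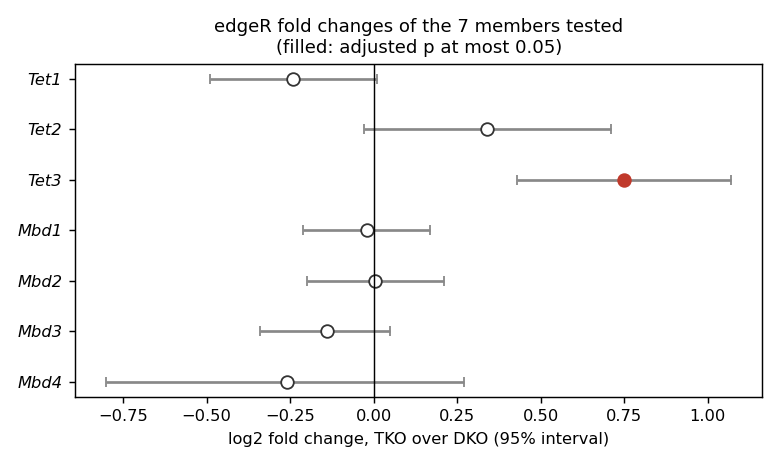
Log2 fold change of TKO over DKO for the 7 members tested (x axis), with the edgeR estimate as a point and its 95% interval as a bar. The interval of Tet3, 0.43 to 1.07, lies above 0, and the other 6 intervals include 0.

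Per length, the members spanned a wide range of levels. In TKO the order ran from Mbd3 at 37.0 ± 2.57 (CPM, divided by kilobases of union exon) through Mbd2 (19.4 ± 1.40), Tet3 (12.2 ± 2.16), Mbd1 (7.95 ± 0.536), Tet1 (4.42 ± 0.0553) and Tet2 (3.21 ± 0.574) to Mbd4 (2.45 ± 0.278) and Tdg at 0, and no neighbours' ranges overlapped. In DKO the levels were 40.9 ± 2.57 for Mbd3, 19.4 ± 1.27 for Mbd2, 8.07 ± 0.252 for Mbd1, 7.22 ± 0.803 for Tet3, 5.22 ± 0.782 for Tet1, 2.94 ± 0.958 for Mbd4 and 2.53 ± 0.432 for Tet2. There the ranges of Mbd1 and Tet3 overlapped, as did those of Mbd4 and Tet2. Scaled by the longest transcript instead, Tet2 stood above Tet1 in TKO (5.90 against 4.76), so their order depends on the length used.

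Within the MBD family, Mbd3 held 55.3 ± 1.29% of the length-scaled counts in TKO and 57.4 ± 1.45% in DKO, and Mbd2 held 29.0 ± 0.910% and 27.1 ± 0.809%. The Mbd2 shares did not overlap (28.2% to 30.0% against 26.2% to 27.8%), a difference of 1.91 percentage points with an exact permutation p of 0.100 (adjusted 0.233). With raw counts and no length scaling the difference was 1.67 percentage points (exact permutation p = 0.400), so that the separation rests on the length scaling. Mbd1 held 11.9 ± 1.32% and 11.3 ± 0.807%, and Mbd4 held 3.68 ± 0.487% and 4.16 ± 1.51%.

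The gene nearest to each member in pattern was sought among 12903 genes by the root mean square difference of centred log2 CPM over the 6 libraries. Man2a2, a Golgi mannosidase, lay nearest to Tet3 at 0.0323 and was itself called higher (log2 fold change 0.70, adjusted p = 0.0151 in edgeR). As for Tet3, that call was lost without TKO replicate 2, DKO replicate 1 or DKO replicate 2. Man2a2 was picked for its likeness to Tet3 in these same libraries, so its like fold and calls follow from that choice. Blm, a helicase of recombination repair, lay nearest to Mbd4 at 0.0766. March6, a ubiquitin ligase, lay nearest to Tet1 at 0.0286 and Birc6, an inhibitor of apoptosis, nearest to Tet2 at 0.0382. Mprip, Tbc1d9 and Tmem246 lay nearest to Mbd1, Mbd2 and Mbd3, at 0.0165, 0.0126 and 0.020. Among the members themselves Mbd2 and Mbd3 were the closest pair at 0.0824, and Tet3 and Mbd4 were 0.578 apart.

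Around the members, 6 lists of pathway genes held 18 calls among 64 genes tested (28.1%, against 16.6% of all genes), 4 higher (6.25%, against 7.35%) and 14 lower (21.9%, against 9.20%). Without TKO replicate 2, DKO replicate 2, DKO replicate 1 or TKO replicate 1 they held 2, 2, 3 and 8, and Cdca7l and Smug1 were the 2 genes of the 18 called in each of the 6 fits that left out 1 retina. Several genes that maintain methylation were lower in TKO. Of 7 genes listed for DNA methyltransferases and maintenance, 6 were tested, 4 were called lower and 0 higher (0 in DESeq2 and 1 at an unadjusted p under 0.05 in edgeR), with a median log2 fold change of -1.28. Cdca7l, a relative of Cdca7, went from 205 ± 60.1 to 56.9 ± 17.7 normalized counts (log2 fold change -1.85, adjusted p = 0.00815 in edgeR). Cdca7, the partner of HELLS, went from 532 ± 136 to 113 ± 74.7 (-2.24, 0.0114). Uhrf1 went from 1235 ± 385 to 226 ± 163 (-2.46, 0.0134). Dnmt1, named after its values were seen, had a log2 fold change of -0.72 (adjusted p = 0.0163 in edgeR). The de novo enzymes Dnmt3a and Dnmt3b, named likewise, were not called (0.25 and -0.34, adjusted p = 0.119 and 0.286 in edgeR). The 4 genes called lower are used in dividing cells, whose markers were lower in TKO, and that part was not tested.

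Of 11 genes listed as other methyl-CpG readers and MBD family, 1 was called higher and 0 lower (0 in DESeq2 and 0 at an unadjusted p under 0.05 in edgeR). It was Zbtb4, a zinc finger protein that binds methylated CpG, at 3733 ± 326 in TKO and 2527 ± 320 in DKO (log2 fold change 0.56, adjusted p = 0.0153 in edgeR). The Zbtb4 call was lost without TKO replicate 1, TKO replicate 2, DKO replicate 1 or DKO replicate 2, and the list then held 0 calls in edgeR. Of all genes tested, 7.35% were called higher and 9.20% lower. The median of the list was 0.18.

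Base excision genes moved both ways. Of 17 tested, 1 was called higher and 4 lower, with a median log2 fold change of -0.11. Smug1, a uracil and hydroxymethyluracil glycosylase, went from 692 ± 102 in DKO to 1311 ± 167 in TKO (0.92, adjusted p = 0.00700 in edgeR). Neil3, a glycosylase of replicating cells, had a log2 fold change of -3.10 (adjusted p = 0.0142 in edgeR) and Apex1, the endonuclease that cuts at abasic sites, of -0.61 (0.0101). Ung and Parp1, named after their values were seen, had log2 fold changes of -1.90 and -0.27 (adjusted p = 0.0148 and 0.0439 in edgeR), and Parp1 was called in 0 of the 6 edgeR fits that left out 1 retina. The list held 1 call without TKO replicate 2 or DKO replicate 2 and 2 without DKO replicate 1.

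The NuRD subunits, partners of Mbd2 and Mbd3, were 13, of which 1 was called higher and 5 lower (median -0.12). Without TKO replicate 2, DKO replicate 1 or DKO replicate 2, 0 were called in edgeR, and without TKO replicate 1 the count was 1. Cdk2ap1 (log2 fold change -0.61, adjusted p = 0.0142 in edgeR), Rbbp7 (-0.42, 0.0162) and the deacetylase Hdac2 (-0.48, 0.0174) were lower. Mta1 and Hdac1 were called lower (-0.47 and -0.33) and Mta2 higher (0.53), all 3 named after their values were seen. Mbd2 and Mbd3 themselves were not called. The dividing cell markers (10 of 10 lower) and the rod markers (10 of 10 higher) moved with the same genotypes as the NuRD and base excision genes, and their part in these values was not tested.

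Of 10 genes that supply TET cofactors or bind TET proteins, 1 was called in each direction. Idh1, which makes the TET cosubstrate alpha-ketoglutarate in the cytosol, went from 764 ± 103 to 1101 ± 201 (log2 fold change 0.53, adjusted p = 0.0467 in edgeR). Its normalized counts overlapped between the genotypes (869 in TKO replicate 3 and 882 in DKO replicate 3). Idh2, the mitochondrial counterpart of Idh1, went from 843 ± 120 to 518 ± 94.6 (-0.70, 0.0186). Without TKO replicate 1, TKO replicate 2, DKO replicate 1 or DKO replicate 2, the list held 0 calls in edgeR. Of 8 corepressor genes that work with methyl-CpG readers, 7 were tested and 0 were called in edgeR or DESeq2, with 2 at an unadjusted p under 0.05 in edgeR. With library totals alone 1 was called, the deacetylase Hdac3 (log2 fold change -0.41, adjusted p = 0.0241 in edgeR), named after its values were seen. Ncor1 and Atf7ip, the most abundant of them, had log2 fold changes of 0.15 and 0.22 (adjusted p = 0.315 and 0.103 in edgeR), and that of Ncor1 was -0.011 with library totals alone.

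**Figure D5:**
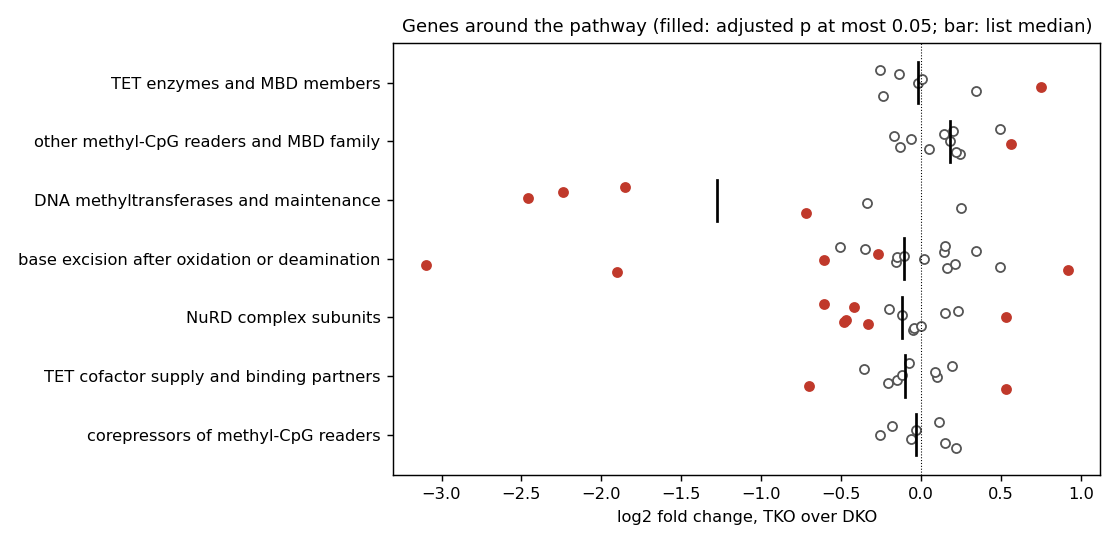
Log2 fold change of TKO over DKO (x axis) for each tested gene of the members and of the 6 pathway lists, with called genes marked. The list of DNA methyltransferases and maintenance had a median of -1.28 and the members of -0.02.

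Other cell types also differed between the libraries. Microglia markers summed to 140 to 244 CPM in TKO and 284 to 430 in DKO, with 6 of 10 called lower (1 without TKO replicate 2 or DKO replicate 2, 2 without DKO replicate 1 and 4 without TKO replicate 1). Lens markers summed to 41.8 to 278 in TKO and 8.40 to 8.79 in DKO (4 of 10 called higher, 1 without DKO replicate 1 or 2), highest in TKO replicate 2. Markers of the retinal pigment epithelium summed to 62.6 to 216 and 15.2 to 91.7. Müller glia markers summed to 5711 to 6006 in TKO and 4836 to 5271 in DKO (3 of 8 called higher and 2 lower, 0 lower in edgeR without DKO replicate 1 or 2 and 1 without TKO replicate 1, TKO replicate 2 or DKO replicate 3), and bipolar markers to 1511 to 2047 and 1298 to 1546 (3 of 10 called higher, 0 without DKO replicate 1 or 2 and 1 without TKO replicate 1 or 2). Amacrine markers summed to 1815 to 2234 and 2046 to 2289. Their part in the members' values was not tested.

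The promoter windows of 6 members were in the RefSeq table, and those of Mbd1 and Mbd2 were not used here. The windows of Tet1, Tet2 and Tet3 lie wholly inside the annotated gene spans, and other starts were not examined for any member. The CpG sites in the 250 bases before the start numbered 51 for Tet2, which 0.0670% of all windows matched or exceeded, 22 for Mbd4, 19 for Tdg, 15 for Tet1 and 14 for Mbd3. Because Rb1 and p107 act through E2F factors, 4 spellings of the E2F motif (TTTCCCGC, TTTGGCGC, TTTCGCGC and TTTGCCGC, both strands) were searched in the same bases with 50 more after the start. A given position can hold only 1 of the 4 on a strand. They were found in 2.26% of all windows and in 0 of the 6 members, which says only that these letters are not in these windows.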

How the data were processed

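Poly(A) RNA of 6 mouse retinae was sequenced with a stranded kit. The deposited values are raw counts per gene made by the authors, 1 column per retina. The study's methods name STAR and HTSeq on GRCm38, while the submitters' processing notes list TopHat2, featureCounts and DESeq2, and the strand setting of the counting is not given in the sources used here, so overlapping genes are less certain. The study's methods let a read align to several places up to a limit, and whether such reads were counted is not given in the sources used here, which leaves near-identical gene copies uncertain.

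Genotypes and replicate numbers came from the labels. Genes with a summed count under 10 were removed. The 3 TKO and 3 DKO retinae were compared with edgeR 4.0.16 in R 4.3.3 (TMM, quasi-likelihood F test, Benjamini-Hochberg over 16904 genes). A gene was called at an adjusted p of at most 0.05. DESeq2 1.42.0 was an alternative. Nothing in the labels says how the retinae relate to animals, so p-values measure the spread between these samples. Limits from counts cover counting error only. In data simulated from these libraries, 160 of 200 genes changed 2-fold were called, and 14 of 16549 unchanged genes.

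The members and gene lists were chosen with earlier results of these data known. Genes named were the members, the targeted genes, up to 3 called genes per list by adjusted p (the 2 most abundant where none was called) and the gene nearest in pattern to each member among genes with a mean of at least 50. Of the table's symbols, 94.5% were in the GENCODE annotation of GRCm38 from which positions and lengths come. Promoters came from RefSeq.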

Additional observations from a re-analysis of the deposited data

How the results depend on the processing

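The fold changes of Tet1, Tet2, Tet3 and Mbd3 kept their direction under all 14 alternatives. Tet3 kept its call in 10 of them, and over all 14 its adjusted p ran from 2.46e-05 to 0.0599 (edgeR and DESeq2). Of the 7 members, 2 were called with library totals alone, 0 at an adjusted p of at most 0.01 and 0 under the added fold and abundance criteria, and leaving out 1 retina gave 0 to 1. Leaving out 1 retina gave 647 (without DKO replicate 2) to 3590 (without TKO replicate 3) called genes against 2799, and 2 to 17 called genes in the 6 lists against 18. Without DKO replicate 1, TKO replicate 2 or TKO replicate 1 the counts were 811, 712 and 1307 genes. The fold change of Mbd2 turned to -0.028 with upper-quartile scaling and -0.15 with library totals alone. Leaving out 1 retina moved the log2 fold change of Tet1 between -0.31 and -0.11, of Tet2 between 0.19 and 0.45, of Mbd1 between -0.053 and 0.035, of Mbd2 between -0.054 and 0.047 and of Mbd4 between -0.46 and 0.010, and the difference in the Mbd4 share between -1.15 and 0.337 percentage points. The cause was not tested. Library totals alone put 77.0% of called genes on the lower side against 55.6%.

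Same-numbered retinae had correlations of their deviations of 0.15, -0.10 and -0.13 over 12903 genes. The labels do not say whether these retinae were paired, and weak correlations cannot decide it. A fit with the replicate block called 106 genes, of which 104 were also called without it, 0 members (Tet3 0.74, adjusted p = 0.0599 in edgeR) and 0 genes of the 6 lists.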
